A study of Mus musculus with 18 samples.

Results

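Colon crypts of mice lacking the receptor Olfr78 in the epithelium were compared with crypts of control mice of the same line. The comparison held 5 of the 18 libraries of the series, 3 titled controls (eCtrl) and 2 titled epithelial knockouts (eKO), each from the crypts of 1 mouse, and 15401 of the 52636 genes in the tables, those with at least 40 reads per 20000000 (RP20M) in 2 or more of the 5 libraries. In the study, eKO mice are Vil1Cre/+-Olfr78fx/fx, and controls of the line are described, for another assay, as either Vil1+/+-Olfr78fx/fx, with the floxed allele and no Cre, or Vil1Cre/+-Olfr78+/+, with Cre and no floxed allele. Written with Vil1Cre first and Olfr78fx second, the genotype labels were HE/WT for eCtrl 1 and eCtrl 3, WT/HO for eCtrl 2 and HE/HO for eKO 1. The library titled eKO 2 carried the genotype label WT/HO, the same as eCtrl 2 and without Cre, against its title. No sex and no age was given for these mice, and no other treatment. The Cre is driven by the Vil1 promoter, which is active in epithelial cells, so other cells of the colon keep the gene.

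Olfr78 is a G protein-coupled receptor of the olfactory receptor family that responds to the short-chain fatty acids acetate and propionate, products of bacterial fermentation in the colon lumen. In the colon it is known from enteroendocrine cells, among them enterochromaffin cells, which make serotonin, and L cells, which make peptide hormones. Crypts hold stem cells at their base and, above them, absorptive colonocytes and secretory cells, namely goblet cells (mucus), deep crypt secretory cells (Reg4), enteroendocrine cells (hormones) and tuft cells (chemosensing). The deletion removes the coding exon, which leaves parts of the transcript in place, so that reads on the gene are only a partial check of the deletion.

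The targeted gene (chr7:102738511-102759471, minus strand, GRCm38) was low in 1 of the 2 libraries titled eKO. Olfr78 was at 105, 61 and 124 RP20M in eCtrl 1, 2 and 3, at 21 in eKO 1 and at 73 in the library titled eKO 2, from 40, 31, 52, 8 and 40 reads. The value of eKO 1 lay below all controls, and its exact Poisson 95% interval of 8.83 to 40.3 RP20M ended below the lowest bound of the controls, 41.2. The value of the library titled eKO 2, with an interval of 52.0 to 99.1, lay between those of eCtrl 2 and eCtrl 1. These intervals cover counting error only. The log2 fold change was -1.02 ± 0.49 (SE) with an unadjusted limma p of 0.073. An exact two-sided permutation test gave p = 0.3, where 3 libraries against 2 allow 10 splits and no p below 0.1. Title and genotype label disagree, and the reads on Olfr78 did not separate this library from the controls. This library is therefore called the library labelled eKO 2. Many of the leading genes and lists, but not all, are also given without it.

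The neighbouring receptor Olfr558, also found in enterochromaffin cells, was at 34, 4 and 24 RP20M in the controls and at 23 and 21 in eKO 1 and the library labelled eKO 2, all below the level needed for testing. Ffar3, a receptor for short-chain fatty acids of enteroendocrine cells, was at 42, 24 and 27 RP20M in controls against 21 and 19. Ffar2, a receptor for the same ligands, was at 615, 292 and 310 RP20M in controls against 920 and 395. The groups overlapped for Ffar2 and Olfr558 and did not for Ffar3, with 1 read worth between 1.82 and 2.61 RP20M. For Ffar2 the log2 fold change was 0.65 ± 0.42 (SE) with an unadjusted limma p of 0.17.

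**Figure D1:**
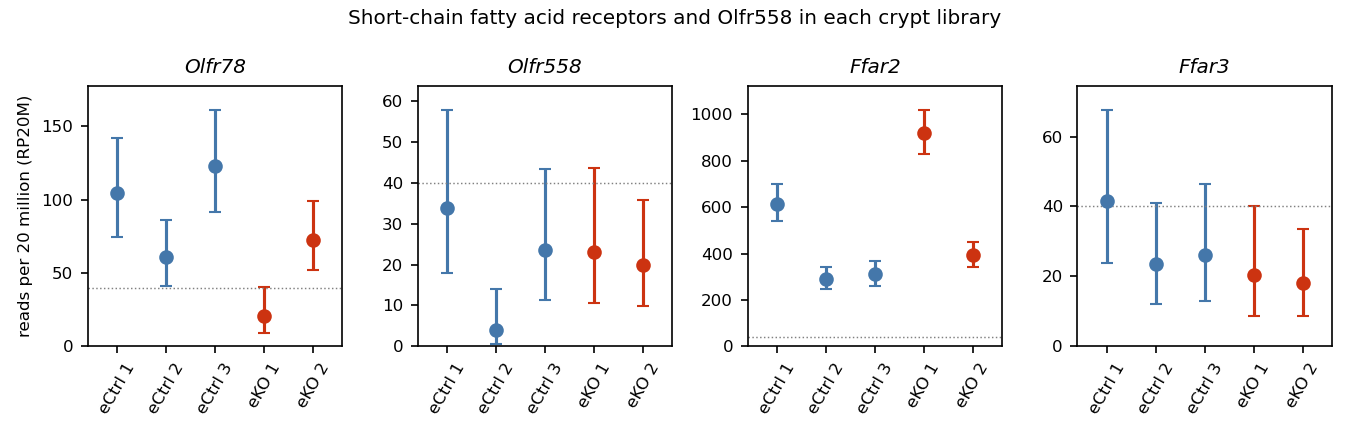
Level of Olfr78, Olfr558, Ffar2 and Ffar3 in each crypt library, in RP20M (y axis), for 3 eCtrl (blue) and 2 libraries titled eKO (red). Points are the recovered reads scaled to 20000000, bars are exact Poisson 95% intervals for counting error, and the dotted line marks 40 RP20M. For Olfr78, eKO 1 sits at 21 RP20M and the library labelled eKO 2 at 73, within the controls.

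The libraries were of similar depth but did not group by title. Reads on genes numbered 7676774 to 10224748 in controls, 7827810 in eKO 1 and 10995300 in the library labelled eKO 2. Across the 15401 genes, on log2(RP20M + 10), Pearson's r was 0.982 between eCtrl 1 and eKO 1, and 0.984 to 0.986 among eCtrl 2, eCtrl 3 and the library labelled eKO 2. Between these 2 sets of libraries r was 0.956 to 0.969, with the lowest value between the 2 libraries titled eKO. Genes are not independent replicates, and these values describe the libraries. Mitochondrial transcripts took 5.82% to 7.16% of the values in controls, 6.93% in eKO 1 and 3.88% in the library labelled eKO 2. Gm10800, a gene model chosen after its values were seen, was at 1280, 53 and 62 RP20M in controls, 1342 in eKO 1 and 7260 in the library labelled eKO 2. The part of these differences between libraries in the results below was not tested.

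**Figure D2:**
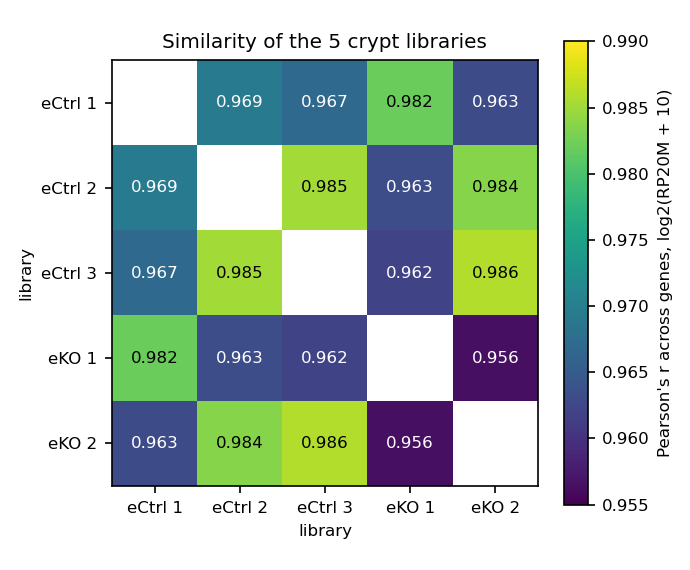
Pearson's r between each pair of the 5 crypt libraries across 15401 genes on log2(RP20M + 10), shown as colour and number. eCtrl 1 pairs with eKO 1 (0.982), and eCtrl 2, eCtrl 3 and the library labelled eKO 2 form the other set (0.984 to 0.986).

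All libraries carried the markers of epithelium. The 8 epithelial genes, among them Epcam, Cdh1, Vil1 and the keratin Krt8, summed to 136186 to 151583 RP20M in controls and to 155459 and 159805 in eKO 1 and the library labelled eKO 2. Markers of other cells were low. The 6 stromal genes summed to 328 to 1822 RP20M in controls against 739 and 1776, the 5 smooth muscle genes to 443 to 719 against 564 and 1187, the 9 T and NK cell genes to 364 to 636 against 363 and 376, and the 8 B and plasma cell genes to 72 to 555 against 377 and 375. The 6 macrophage genes summed to 151 to 287 RP20M against 189 and 219, the 4 endothelial genes to 223 to 304 against 212 and 333, and the 6 neuronal and glial genes to 26 to 43 against 30 and 63. For RNA of whole crypts, fewer cells of a type and less RNA per cell cannot be told apart.

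The main comparison asked which genes differ in crypts when the epithelium lacks Olfr78. With limma, Benjamini-Hochberg adjustment and the thresholds of the methods (an adjusted p up to 0.2 and a change of more than 1.5-fold), 0 genes were called higher and 0 lower (0.0% of genes in each direction). At an unadjusted p under 0.05 there were 74 higher (0.48%) and 53 lower genes (0.344%), and 48 and 65 after median-of-ratios rescaling. The shares lie far below 0.05, the share expected without any effect, so the p-values may not be exact. The cause was not tested. Both libraries titled eKO lay above all controls for 1168 genes (7.58%) and below all controls for 430 genes (2.79%). If titles were exchangeable, each order would have a share of 0.1, and both shares lie below it. The quasi-likelihood test of edgeR on recovered reads called 0 genes, with 55 higher (0.357%) and 69 lower (0.448%) at an unadjusted p under 0.05. DESeq2 on the same reads called 9 genes, 1 higher (Reg3g, 0.0442% of the 2263 genes it gave an adjusted p) and 8 lower (Reg4, Mpp6, Mptx1, Gsdmc2, Gsdmc3, Gsdmc4, Gal3st2c and Rpl35a, 0.354%). The genes below are therefore described by their values, and none of them passed the main test.

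The genes with the smallest p-values on the lower side were Mptx1, Fmo1, Mpp6, Reg4 and Rpl35a. Mptx1, mucosal pentraxin, a pentraxin made in the intestinal epithelium, was at 24193, 20588 and 7569 RP20M in eCtrl 1, 2 and 3, at 4045 in eKO 1 and at 2753 in the library labelled eKO 2. Both lay below all controls, and eCtrl 3 stood far below the other 2 controls. The ratio of control to eKO means was 5.13, and the log2 fold change was -2.22 ± 0.47 (SE) with an unadjusted limma p of 0.0019. It was -1.32 with the library labelled eKO 2 counted among the controls, and -2.74 without eCtrl 3. Of the 50-base stretches of its transcripts, 17.9% also occur in its neighbour Mptx2, so its reads may be shared.

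Reg4, the lectin that marks deep crypt secretory cells, was at 11263, 8513 and 7858 RP20M in controls against 3046 in eKO 1 and 5305 in the library labelled eKO 2. The groups did not overlap, the controls were 2.21-fold higher on average, and the log2 fold change was -1.18 ± 0.27 (SE), with an unadjusted limma p of 0.0029 and an adjusted p by DESeq2 of 0.014. Mpp6, a membrane-associated guanylate kinase scaffold, was at 4161, 4302 and 2710 RP20M against 1541 and 1976. Its groups did not overlap either, with a log2 fold change of -1.06 ± 0.24 (SE), an unadjusted limma p of 0.0024 and an adjusted p by DESeq2 of 0.014. No 50-base stretch of Reg4 or Mpp6 occurs in another gene's transcripts. Without the library labelled eKO 2 the log2 fold changes were -1.58 for Reg4 and -1.24 for Mpp6, and without eKO 1 they were -0.78 and -0.88.

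Fmo1, a flavin monooxygenase that oxidises drugs and other foreign compounds, was at 120, 132 and 154 RP20M in controls and at 57 and 55 in eKO 1 and the library labelled eKO 2. The log2 fold change was -1.13 ± 0.25 (SE), with an unadjusted limma p of 0.0024. Rpl35a, a protein of the large ribosomal subunit, was at 2491, 2565 and 2392 RP20M against 1763 and 1507, with a log2 fold change of -0.60 ± 0.14 (SE) and an unadjusted limma p of 0.0035. Both genes had close values within each group and no overlap between groups. Without the library labelled eKO 2 the log2 fold changes were -1.11 for Fmo1 and -0.49 for Rpl35a.

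On the higher side, Reg3g, an antibacterial lectin that the epithelium secretes onto its surface, was at 1657, 1694 and 1846 RP20M in controls against 2842 in eKO 1 and 6980 in the library labelled eKO 2. Both lay above all controls, but by different amounts: the log2 fold change was 1.36 ± 0.34 (SE) with an unadjusted limma p of 0.0043, 0.71 without the library labelled eKO 2 and 2.01 without eKO 1. B3gnt6, the glycosyltransferase that makes core 3 O-glycans of mucins, was at 678, 638 and 715 RP20M against 931 and 1170, with a log2 fold change of 0.62 ± 0.16 (SE) and an unadjusted limma p of 0.0059. Pnmal2, a member of the paraneoplastic antigen family, was at 120, 61 and 86 RP20M against 248 and 168 (log2 fold change 1.16 ± 0.32, SE). Trim35, a tripartite motif protein, was at 227, 200 and 187 RP20M against 343 and 299 (log2 fold change 0.63 ± 0.19, SE). Celf5, an RNA-binding protein, was at 136, 192 and 159 RP20M against 256 and 273 (log2 fold change 0.68 ± 0.22, SE). For all 5 genes both libraries titled eKO lay above the 3 controls. Without the library labelled eKO 2 the log2 fold changes were 0.46 for B3gnt6, 1.43 for Pnmal2, 0.72 for Trim35 and 0.64 for Celf5.

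**Figure D3:**
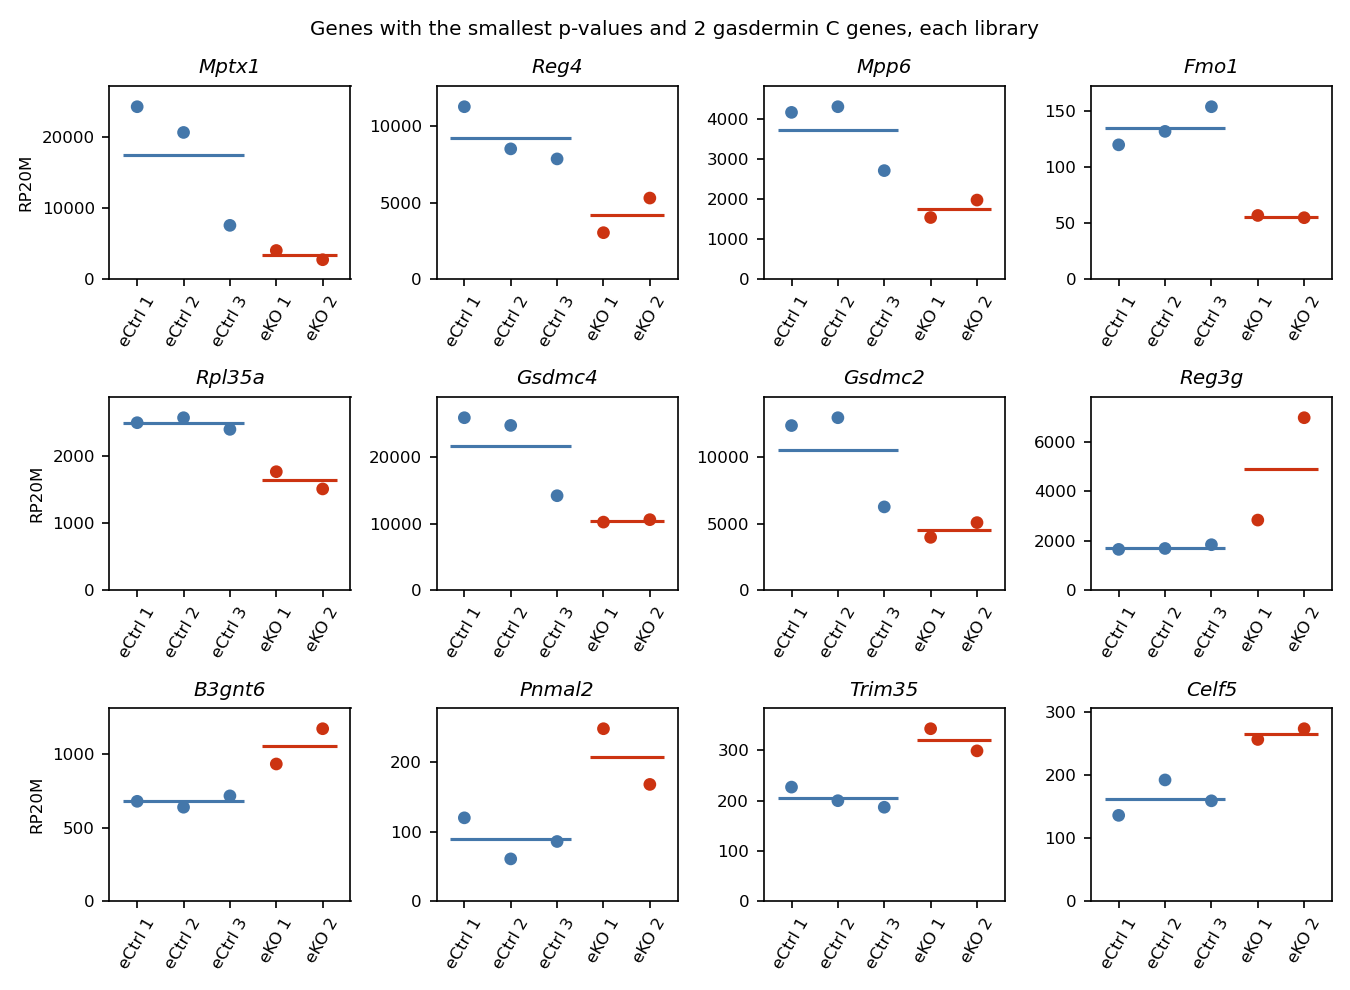
Level in RP20M (y axis, from 0) of 12 genes in 3 eCtrl (blue) and 2 libraries titled eKO (red); points are libraries and lines are group means. Mptx1, Reg4, Mpp6, Fmo1, Rpl35a, Gsdmc4 and Gsdmc2 lie below all controls in both libraries titled eKO, and Reg3g, B3gnt6, Pnmal2, Trim35 and Celf5 lie above.

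The 100 bases before the start site of Mptx1, Reg4, Gsdmc3 and Reg3g, 4 of the genes with the smallest p-values or, for Gsdmc3, of the gasdermin C genes, are shown with each match to TATAA, searched on both strands, in capitals. They come from RefSeq promoters on GRCm38.p6, at chr1:174330418-174330517 (plus strand) for Mptx1, chr3:98222056-98222155 (plus strand) for Reg4, chr15:63878559-63878658 (minus strand) for Gsdmc3 and chr6:78468875-78468974 (minus strand) for Reg3g.
Mptx1: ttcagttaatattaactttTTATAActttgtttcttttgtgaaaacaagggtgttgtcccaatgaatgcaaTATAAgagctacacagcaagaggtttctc
Reg4: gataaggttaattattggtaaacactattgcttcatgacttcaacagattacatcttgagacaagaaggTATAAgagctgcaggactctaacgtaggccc
Gsdmc3: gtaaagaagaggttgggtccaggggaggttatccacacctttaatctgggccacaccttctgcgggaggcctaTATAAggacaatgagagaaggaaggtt
Reg3g: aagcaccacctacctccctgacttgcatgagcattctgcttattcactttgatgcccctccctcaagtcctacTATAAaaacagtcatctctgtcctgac
The match nearest to the start begins at -29 in Mptx1, -31 in Reg4, -27 in Gsdmc3 and -27 in Reg3g. Matches on either strand occur in 10.2% of the 32851 RefSeq promoters in a window of this length. Promoters were at hand for 76 of 104 genes of the text, and only these 4 are shown. Their matches therefore give no share over the leading genes. In Mptx1 the first capitals hold overlapping matches on both strands. The genes move in both directions, and a match is a description of the letters only.

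The gasdermin C genes, a cluster on chromosome 15 (GRCm38) whose products can form membrane pores, had lower values in both libraries titled eKO. Gsdmc4 (chr15:63891264-63912297) was at 25839, 24688 and 14166 RP20M in controls and at 10215 in eKO 1 and 10581 in the library labelled eKO 2. Gsdmc2 (chr15:63824346-63845177) was at 12376, 12965 and 6268 RP20M against 3981 and 5088. Both had no overlap between groups, with eCtrl 3 the lowest control in each. On average the controls were 2.07-fold higher for Gsdmc4 and 2.32-fold higher for Gsdmc2, with unadjusted limma p-values of 0.0085 and 0.0084 and adjusted p-values by DESeq2 of 0.034 and 0.032.

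The other genes of the cluster, chosen after their values were seen, gave the same picture. Gsdmc3 was at 3260, 3954 and 2454 RP20M against 1513 and 1990, Gsdmc at 131, 124 and 79 against 46 and 50, and the pseudogene Gsdmcl2 at 1759, 2160 and 985 against 698 and 657. Their log2 fold changes were -0.86, -1.04 and -1.19. Without the library labelled eKO 2 the log2 fold changes of all 5 genes of the cluster were -1.33 (Gsdmc2) to -1.03 (Gsdmc4). These are not independent measurements, since 51.3% of the 50-base stretches of Gsdmc2, 46.0% of Gsdmc3 and 39.0% of Gsdmc4 also occur in another gene, mostly of the cluster, and reads can be split among them. Of the 12 gasdermin and pyroptosis genes measured, the 4 with an unadjusted p under 0.05 were Gsdmc, Gsdmc2, Gsdmc3 and Gsdmc4, all lower (0.344% of all genes), 0 were higher (0.48% of all genes), and the list had a median of -0.09 (log2 fold change) against 0.03 over all genes. The list median was -0.34 without the library labelled eKO 2 and -0.08 without eKO 1. Naip1, an inflammasome gene in the same list, was at 5224, 5282 and 6436 RP20M against 4214 and 6980.

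Among the antimicrobial genes of the epithelium, 16 of 22 were kept, with 2 lower and 2 higher at an unadjusted p under 0.05 (0.344% and 0.48% of all genes) and a list median of -0.08 (log2 fold change). The list median was -0.54 without the library labelled eKO 2 and 0.24 without eKO 1. The lower genes were Mptx1 and Ang4, an angiogenin with antibacterial activity. Ang4 was at 7504, 6616 and 462 RP20M in controls against 356 in eKO 1 and 246 in the library labelled eKO 2. It lay below all controls by a small margin only, as eCtrl 3 lay far below the other 2 controls. The log2 fold change was -3.23 ± 1.08 (SE), and -4.53 without eCtrl 3, where limma called Ang4 and 3 other genes lower (0.026% of genes, adjusted p 0.0055 for Ang4). The higher genes were Reg3g and Lpo, lactoperoxidase, chosen after its values were seen. Lpo was at 558, 5634 and 353 RP20M against 8396 and 6622, with a log2 fold change of 2.83 ± 1.02 (SE), and here eCtrl 2 stood near the libraries titled eKO. Without eCtrl 2, Lpo was the only gene called (0.00649% of genes, log2 fold change 4.04, adjusted p by limma 0.046). For Ang4 and Lpo alike, the library left out was the control nearest to the libraries titled eKO. Neither call therefore counts as evidence of a difference, and with all libraries limma called neither gene. Pigr and Lypd8, the most abundant antimicrobial genes, overlapped between groups. Pigr, the receptor that carries IgA into the lumen, was at 71033, 72955 and 60290 RP20M against 81568 and 66050, and Lypd8, which binds flagellated bacteria, at 60114, 55992 and 74171 against 52079 and 68466.

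All 16 goblet and deep crypt secretory cell genes were kept, with Reg4 and Clca1 lower (0.344% of all genes) and 0 higher (0.48%) at an unadjusted p under 0.05 and a list median of 0.08 (log2 fold change). Muc2, the main mucin of the colon, was at 406858, 274151 and 243604 RP20M in controls against 254720 in eKO 1 and 377140 in the library labelled eKO 2. Clca1, a metalloprotease of the mucus layer, was at 71286, 83324 and 38684 RP20M against 20072 and 39361, so that eCtrl 3 lay below the library labelled eKO 2, with a log2 fold change of -1.12 ± 0.42 (SE) and an unadjusted limma p of 0.030. Fcgbp, which binds Muc2 in mucus, was at 114791, 123671 and 77602 RP20M against 53287 and 95970, with a log2 fold change of -0.53 ± 0.37 (SE). Retnlb, an antibacterial goblet cell peptide, varied more within the controls than between groups, at 25988, 6379 and 665 RP20M against 16723 and 14568 (log2 fold change 1.70 ± 1.27, SE).

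Tuft cell genes were below the controls on average throughout the list. All 11 kept of 12 had a negative log2 fold change, where 6627 of all 15401 genes did. They ran from -0.69 to -0.23, with a median of -0.41 against 0.03 over all genes. Of the 11 genes, 2 had an unadjusted p under 0.05, both lower, where 0.344% of all genes did. Below all controls in both libraries titled eKO lay 5 of the 11, against 2.79% of all genes. Trpm5, the cation channel of taste signalling, was at 566, 490 and 502 RP20M in controls against 282 in eKO 1 and 357 in the library labelled eKO 2 (log2 fold change -0.69 ± 0.18, SE, unadjusted limma p 0.0053). Dclk1, a kinase used as the classical tuft cell marker, was at 1129, 986 and 843 RP20M against 644 and 706 (log2 fold change -0.53 ± 0.17, SE, unadjusted limma p 0.016). Both genes had separate groups. The other 3 without overlap, Alox5, Ptgs1 and Gnat3, were chosen after their values were seen. Alox5, an enzyme of leukotriene synthesis, was at 183, 120 and 126 RP20M against 77 and 110, Ptgs1, a cyclooxygenase, at 120, 83 and 81 against 62 and 75, and Gnat3, gustducin, at 94, 102 and 71 against 54 and 64. Ptprc, which marks all white blood cells, was at 475, 460 and 213 RP20M against 197 and 217; its part in the tuft cell values was not tested. The median of the list was -0.60 without the library labelled eKO 2 and -0.33 without eKO 1.

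Genes of enterochromaffin cells lay on both sides of the controls. Of 12 genes 10 were kept, 0 had an unadjusted p under 0.05, and the list median was -0.04 (log2 fold change), with single genes from -0.34 to 0.32. Chgb, chromogranin B of secretory granules, was at 4797, 2956 and 4673 RP20M in controls against 3447 in eKO 1 and 2971 in the library labelled eKO 2, with a log2 fold change of -0.34 ± 0.23 (SE). Chga, chromogranin A, was at 2215, 1755 and 2932 RP20M against 2448 and 1867, and Tph1, the first enzyme of serotonin synthesis in these cells, at 996, 846 and 1269 against 1058 and 879. In all 3 genes both libraries titled eKO lay within the range of the controls. The groups were separate in 2 genes of the list, chosen after their values were seen. Of these, 1 lay below all controls (2.79% of all genes) and 1 above (7.58% of all genes). Slc18a1, the vesicular monoamine transporter of these cells, was at 157, 159 and 199 RP20M in controls against 121 and 151, below all controls, and Rab3c, a GTPase of vesicle release, at 76, 55 and 86 against 90 and 93, above all controls. The log2 fold changes were -0.07 ± 0.24 (SE) for Chga and -0.08 ± 0.20 (SE) for Tph1, and 0.12 and 0.05 without the library labelled eKO 2.

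Of the other gut hormones, Gcg alone had an unadjusted p under 0.05, and was higher, as 0.48% of all genes were. Of 9 genes 7 were kept, with a list median of 0.32 (log2 fold change), which was 0.06 without eCtrl 1, 0.20 without the library labelled eKO 2 and 0.04 with that library as a control. Gcg, which encodes the glucagon-like peptides of L cells, was at 485, 366 and 713 RP20M in controls against 826 in eKO 1 and 917 in the library labelled eKO 2, with a log2 fold change of 0.78 ± 0.27 (SE) and an unadjusted limma p of 0.021. Both lay above all controls, and the log2 fold change was 0.71 without the library labelled eKO 2. Pyy, peptide YY of the same cells, overlapped at 185, 265 and 396 RP20M against 302 and 379, and so did Sct, secretin, at 175, 200 and 263 against 151 and 259. Sst, somatostatin of D cells, chosen after its values were seen, was at 68, 51 and 74 RP20M against 80 and 106. Transcription factors of enteroendocrine cells had 7 of 10 genes kept, all with a positive log2 fold change (0.12 to 0.44), and 0 with an unadjusted p under 0.05. Over all genes, 8774 of 15401 had a positive log2 fold change. Neurod1 was at 120, 159 and 183 RP20M against 182 and 153, and Sox4 at 884, 894 and 897 against 1109 and 848.

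The sulfur list holds sulfate transport, sulfation and sulfide oxidation, and 12 of its genes were kept. Of these, 1 had an unadjusted p under 0.05 and was lower (0.344% of all genes). It was Papss2, the enzyme that activates sulfate for the sulfation of mucins. Papss2 was at 17294, 18917 and 16262 RP20M in controls against 10954 in eKO 1 and 13262 in the library labelled eKO 2, without overlap (log2 fold change -0.53 ± 0.18, SE, unadjusted limma p 0.022). Slc26a2, a sulfate transporter, was at 19084, 28664 and 32208 RP20M against 20011 and 33417. Slc26a1, another anion transporter, was at 222, 153 and 154 RP20M in controls, 44 in eKO 1 and 153 in the library labelled eKO 2. In the glycosylation list, 17 of 18 genes were kept, with 2 higher (0.48% of all genes) and 0 lower (0.344%) at an unadjusted p under 0.05 and a list median of 0.13 (log2 fold change). They were B3gnt6 and B3galt5, a galactosyltransferase chosen after its values were seen, at 6068, 6727 and 6277 RP20M against 8253 and 8761 (log2 fold change 0.42 ± 0.15, SE). Without the library labelled eKO 2 the log2 fold changes were 0.38 for B3galt5 and -0.67 for Papss2. C1galt1, which makes core 1 O-glycans, was at 9940, 8717 and 8348 RP20M against 11202 and 10099.

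Stem, proliferation and colonocyte genes had no member with an unadjusted p under 0.05. Over the 15 stem cell genes the median was 0.01 (log2 fold change). Slc12a2, an ion cotransporter of the crypt base, was at 15486, 13337 and 11360 RP20M in controls against 16713 in eKO 1 and 12791 in the library labelled eKO 2, and Cd44, an adhesion receptor, at 2629, 2234 and 2028 against 3769 and 2520. Lgr5, the classical stem cell marker, chosen after its values were seen, was at 410, 415 and 360 RP20M against 261 and 424. All 18 cell cycle genes had a positive log2 fold change, as 8774 of all 15401 genes did. They ran from 0.00 to 0.43, with a median of 0.20, which was 0.03 without eCtrl 3. The 2 libraries titled eKO differed in this list, where the median was 0.49 without the library labelled eKO 2 and -0.13 without eKO 1. Ccnb1, the mitotic cyclin B1, was at 542, 495 and 469 RP20M in controls against 826 and 559, and the proliferation marker Mki67 at 6808, 8437 and 5281 against 7476 and 6065. For Ccnb1 both lay above all controls, and for Mki67 both lay within them. The 20 colonocyte genes had a median of 0.07, with Car1, carbonic anhydrase 1, at 120418, 75676 and 91882 RP20M against 100036 and 81808, and Ceacam1, an adhesion molecule of the surface, at 54404, 80654 and 80020 against 48019 and 71158. Their median was -0.24 without the library labelled eKO 2 and 0.43 without eKO 1. Interferon genes (15 of 16 kept, median 0.19) also split between the libraries titled eKO, with a median of -0.24 without the library labelled eKO 2 and 0.61 without eKO 1. Irf7, a regulator of the interferon response, was at 1327, 1127 and 1706 RP20M against 1518 and 2171, and Oas2, an antiviral synthetase, at 24, 98 and 88 against 39 and 217.

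The remaining lists gave few members with an unadjusted p under 0.05, where 0.48% of all genes were higher and 0.344% lower. There was 1 of 14 lipid genes, Pdk4, higher, 1 of 17 genes for foreign compounds, Cyp2s1, higher, 1 of 12 stress genes, Hspa1b, lower, and 0 of 15 Wnt and Notch genes, 0 of 5 MHC class II genes and 0 of 16 Hox and other regional genes. Pdk4, a kinase that restrains glucose oxidation, was at 717, 390 and 448 RP20M in controls against 752 and 865, and Cyp2s1, a cytochrome P450, at 2246, 2254 and 2788 against 2962 and 3999, both above all controls. Hspa1b, a heat shock protein, was at 357, 1194 and 833 RP20M against 213 and 415 (log2 fold change -1.22 ± 0.49, SE). These 3 genes were chosen after their values were seen. Lgr4, a Wnt pathway receptor, was at 5250, 7162 and 7555 RP20M against 6130 and 7702. Of the Wnt and Notch genes, 4 lay above all controls in both libraries titled eKO (Hes1, Hes6, Lrp5 and Dll4), against 7.58% of all genes. Cd74, the invariant chain of MHC class II, was highest in eCtrl 1, at 761, 212 and 109 RP20M against 238 and 228. The Y-linked genes Kdm5d, Uty, Ddx3y and Eif2s3y were present in all 5 libraries, at 660 to 2252 RP20M, and 0 had an unadjusted p under 0.05. The regional genes, which follow the position along the colon, varied between libraries of the same group. Hoxb13, a gene of the distal colon, was at 865 RP20M in eCtrl 1, 1976 in eCtrl 2, 2071 in eCtrl 3, 1390 in eKO 1 and 1425 in the library labelled eKO 2, and Hoxd11 was at 45, 212, 282, 72 and 128 in the same order. Of the markers of other cells, Igha, the constant region of IgA, was at 97, 28 and 15 RP20M against 123 and 150 (log2 fold change 1.64 ± 0.59, SE, unadjusted limma p 0.025), and Dcn, decorin of fibroblasts, at 185, 255 and 133 against 305 and 313 (log2 fold change 0.71 ± 0.27, SE, unadjusted limma p 0.034). Both were above all controls in both libraries titled eKO, with log2 fold changes of 1.51 and 0.69 without the library labelled eKO 2.

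**Figure D4:**
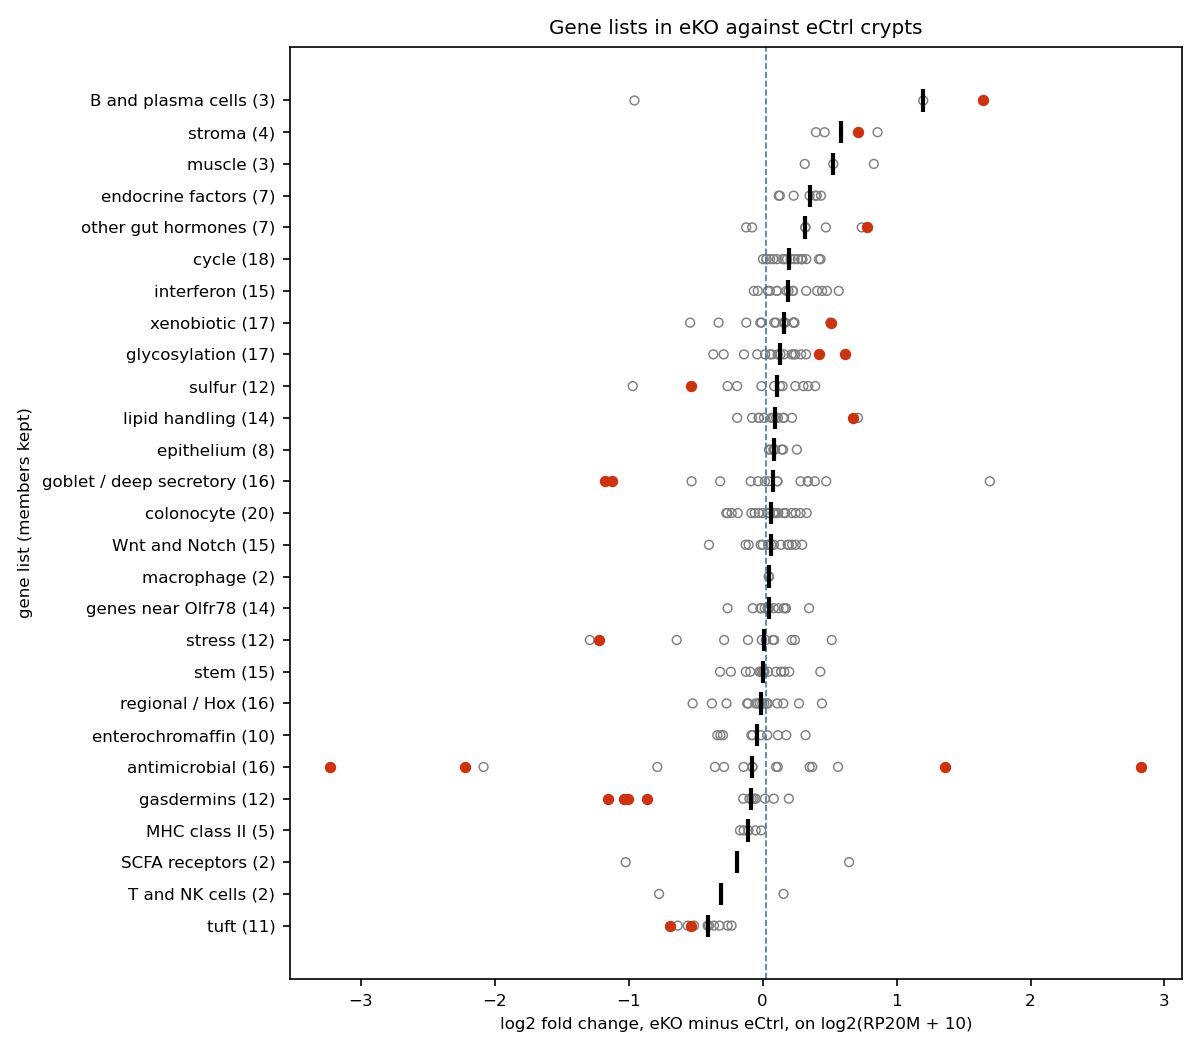
Log2 fold change (x axis, eKO minus eCtrl on log2(RP20M + 10)) of the kept members of each gene list (y axis, number of members). Open circles are members, red circles those with an unadjusted limma p under 0.05, black bars the list medians and the dashed line the median of all genes (0.03). All 11 tuft cell genes lie left of the dashed line, with a median of -0.41.

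Which genes stood out depended on how the library labelled eKO 2 was grouped. Counted by its genotype label, as a control, it left 1 eKO against 4 controls, where limma called 14 genes lower (0.0909%) and 0 higher, with 771 higher (5.01%) and 914 lower (5.93%) at an unadjusted p under 0.05. Left out, it gave 6 lower genes (0.039%), all 6 among those 14, and 0 higher, with 423 higher (2.75%) and 542 lower (3.52%) at an unadjusted p under 0.05. In both fits the single eKO library is assumed to vary as the controls do. The genes called were chosen by these alternatives, after their values were seen. Mal, a lipid raft protein of apical transport, was at 1165, 1704 and 1205 RP20M in controls, 184 in eKO 1 and 1292 in the library labelled eKO 2. Slc37a2, a sugar phosphate transporter, was at 4091, 7733 and 5977 RP20M in controls, 675 in eKO 1 and 3848 in the library labelled eKO 2. The library labelled eKO 2 lay within the controls for Mal and between the controls and eKO 1 for Slc37a2.

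Gal3st2c, a sulfotransferase that adds sulfate to galactose, was at 3455, 4560 and 3398 RP20M in controls, 759 in eKO 1 and 2267 in the library labelled eKO 2. St3gal5, a sialyltransferase of ganglioside synthesis chosen after its values were seen, was at 376, 347 and 263 RP20M in controls, 80 in eKO 1 and 175 in the library labelled eKO 2. For both genes the library labelled eKO 2 lay below all controls and above eKO 1. The log2 fold changes were -1.51 ± 0.41 (SE) for Gal3st2c and -1.38 ± 0.33 (SE) for St3gal5, and -2.30 and -1.90 without the library labelled eKO 2. Without eKO 1 the only gene called was Reg3g (0.00649% of genes, adjusted p by limma 0.11).

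The same contrast was available in crypts of the Olfr78-GFP line, 2 WT and 5 KO libraries of other mice, which share no library with the eKO comparison. In that line a GFP reporter cassette replaces the coding exon of Olfr78 in every cell of the body. The study describes the 2 lines as differing in genetic background. The part of this in the values below was not tested. In a fit of all 12 crypt libraries over 16447 genes, KO crypts of that line had 503 genes called higher (3.06%) and 131 lower (0.796%). For Mpp6 the log2 fold change was -1.05 ± 0.24 (SE) there against -1.06 ± 0.24 in the eKO comparison, and the difference between the lines was -0.01 ± 0.35 (unadjusted limma p 0.98). For Reg4 the values were -1.89 ± 0.51 and -1.18 ± 0.27, for Gsdmc2 -0.82 ± 0.33 and -1.15 ± 0.32, for Papss2 -0.90 ± 0.16 and -0.53 ± 0.18, and for Olfr78 itself -1.71 ± 0.44 and -1.02 ± 0.49, with the Olfr78-GFP line first. For these 4 genes the unadjusted limma p of the difference was 0.36, 0.51, 0.16 and 0.31, which does not show that the lines act alike.

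Other leading genes had an unadjusted limma p under 0.05 for the difference between the lines, none past the thresholds. These genes stood out in the eKO comparison, whose values also enter the difference, so their p-values for the difference lean low. Mptx1 was at -0.41 ± 0.50 in the Olfr78-GFP line against -2.22 ± 0.47 in the eKO comparison (difference p 0.028 unadjusted, 0.56 adjusted, limma). Trpm5 was at 0.11 ± 0.19 against -0.69 ± 0.18, Dclk1 at 0.10 ± 0.16 against -0.53 ± 0.17, Gcg at -0.22 ± 0.27 against 0.78 ± 0.27 and Clca1 at 0.34 ± 0.31 against -1.12 ± 0.42. For these 4 genes the adjusted p of the difference was 0.56 as well. Trim35 was at -0.23 ± 0.15 against 0.63 ± 0.19 (difference p 0.0016 unadjusted, 0.56 adjusted, limma). Ang4 was at 0.11 ± 0.89 against -3.23 ± 1.08, and Lpo at 0.42 ± 0.72 against 2.83 ± 1.02. For Reg3g, B3gnt6, Pnmal2, Celf5, Fmo1 and Rpl35a the unadjusted limma p of the difference was 0.091 to 0.35. Of all 16447 genes, 1442 had an unadjusted limma p under 0.05 for the difference between the lines. The difference passed the thresholds for 5 genes (0.0304%), all with a higher log2 fold change in the eKO comparison. It passed for 0 genes in the other direction. The count rested on single libraries, with 1143 higher and 2173 lower genes without the library labelled eKO 2 and 159 and 424 without eCtrl 1. All 5 lie on chromosome 7 (GRCm38) at 1.5 to 3.33 Mb from Olfr78, on the side of its start site. One of them, Trim12a, a tripartite motif gene chosen after its values were seen, was at 318, 370 and 554 RP20M in eCtrl, 322 in eKO 1 and 535 in the library labelled eKO 2. In the Olfr78-GFP line it was at 269 and 360 RP20M in WT crypts and at 3 to 13 in the 5 KO crypts. The difference of log2 fold changes was 4.45 ± 0.44 (SE, adjusted p by limma 0.00075). Of the 14 genes kept from the region around Olfr78, 0 had an unadjusted p under 0.05 in the eKO comparison, with a list median of 0.05 (log2 fold change). This median was -0.26 without the library labelled eKO 2 and 0.32 without eKO 1. Stim1, a calcium sensor, was the most abundant of the 14 genes. It was at 1944, 2927 and 2965 RP20M in controls against 2037 in eKO 1 and 3155 in the library labelled eKO 2.

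**Figure D5:**
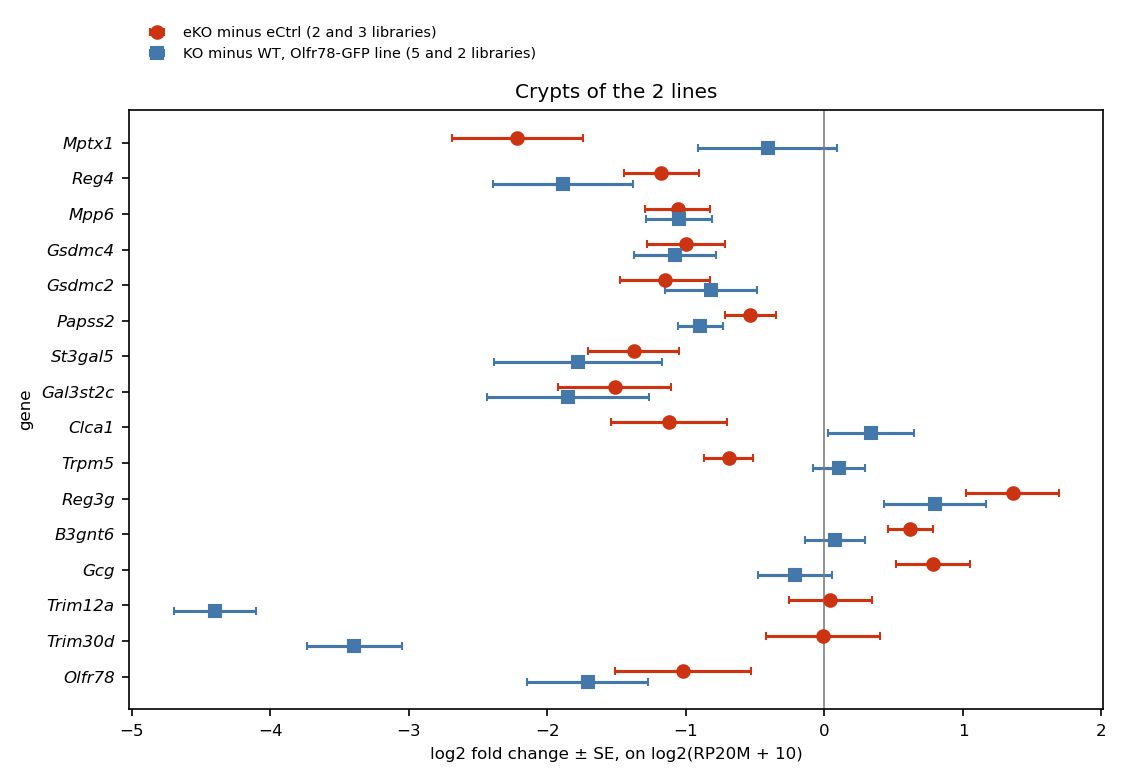
Log2 fold change ± SE (x axis, on log2(RP20M + 10)) of 16 genes (y axis) in eKO against eCtrl crypts (red circles) and in KO against WT crypts of the Olfr78-GFP line (blue squares, fit of 12 libraries). Mpp6 (-1.06 and -1.05) lies at the same place in both lines, and Trim12a is at 0.04 and -4.40.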

How the data were processed

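RNA was measured in colon crypts isolated with EDTA, 1 mouse per library. Per the methods, the authors sequenced paired-end reads, mapped them to GRCm38 with STAR and counted reads per gene with HTSeq. Each crypt value the authors deposited is a score, the reads of a gene set to a library total of 20000000 and rounded up (RP20M). For sorted cells, not used here, the authors deposited a signal made the same way. The whole reads behind the crypt values were recovered from the size of 1 read, and 99.84% or more of the values of each of the 5 libraries came out whole. Genes with at least 40 RP20M in 2 or more libraries were kept. limma 3.58.1 with a trend of the spread was run on log2(RP20M + 10), with Benjamini-Hochberg adjustment, a scale that understates the change of low genes. Filter and thresholds (an adjusted p up to 0.2, a change of more than 1.5-fold) follow the methods, where edgeR was used. Single values were tested with an exact permutation test over the 5 libraries. edgeR 4.0.16 and DESeq2 1.42.0 on recovered reads, pseudocounts of 1 and 40, median-of-ratios rescaling, other filters, no trend, a replicate block, all crypt libraries in 1 fit, and other groupings or leaving out of libraries were tried as alternatives. The tests were checked on simulated reads with the same spread for every gene and no library differences beyond depth. This check does not show how the tests behave on the present libraries. Samples were grouped by title. p-values measure the spread between these mice within each titled group. That spread includes the library differences that did not follow the titles.

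Named genes were Olfr78, Olfr558, Ffar2 and Ffar3, the 3 marker genes Mptx1, Reg4 and Mpp6, in each direction the 10 genes with the smallest p past the thresholds or, where fewer than 5 passed, the 5 with the smallest p and a change of more than 1.5-fold, any list gene past them, and from each gene list the 3 most abundant members and the one with the largest change. Values of some named genes were left out of the text. The members and the 30 gene lists were chosen with earlier results of these data known. Shared 50-base stretches were counted in GENCODE M21 transcripts, which also gave gene positions, and promoters came from RefSeq. R 4.3.3 and Python were used.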

Additional observations from a re-analysis of the deposited data

Results flagged for a closer look

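For 5 genes the log2 fold change in eKO against eCtrl crypts differed from that in KO against WT crypts of the Olfr78-GFP line, by an interaction test with limma over 12 libraries at an adjusted p of at most 0.2. The difference was 6.26 for Gm8979 (adjusted p 8.62e-05), 4.45 for Trim12a (0.00075), 3.38 for Trim30d (0.0703), 2.72 for AC123830.1 (0.0879) and 2.45 for Gm27149 (0.176). Gm8979 and Gm27149 are pseudogenes, AC123830.1 is an antisense transcript, and Trim12a and Trim30d encode tripartite motif proteins. In the eKO comparison Trim30d was at 337, 593 and 795 RP20M in eCtrl, 371 in eKO 1 and 779 in the library labelled eKO 2, against 392 and 292 in WT and 12 to 34 in KO crypts of the other line. Gm8979 was at 5526, 10221 and 9320 RP20M in eCtrl, 6010 in eKO 1 and 8853 in the library labelled eKO 2, against 9603 and 9412 in WT and 62 to 173 in KO crypts. The libraries titled eKO therefore stayed within the range of their controls for both genes, where KO crypts of the other line did not. All 5 genes lie 1.5 to 3.33 Mb from Olfr78, and the study describes the lines as differing in genetic background. An effect of losing Olfr78 and one of background near the targeted gene cannot be told apart here. Reads can be split with relatives, since 10.4% of the 50-base stretches of Trim12a and 7.49% of those of Trim30d occur in other genes. No group of this line holds 4 or more libraries, so single libraries were not screened for outlying values.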

How the results depend on the processing

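With limma, 0 genes were called in either direction under pseudocounts of 1 and 40, median-of-ratios rescaling, other filters (28250 or 13529 genes), no trend of the spread and all 12 libraries in 1 fit, and edgeR called 0 as well. DESeq2, which gave no adjusted p for 13138 genes, called 1 gene higher and 8 lower. The replicate block by mouse number gave 3 higher (Mt1, Plet1os and Nov) and 10 lower (among them Ang4, Mptx1, Mpp6, Gsdmc2 and Gsdmc3), with 497 genes at an unadjusted p under 0.05; the numbers come from the titles alone, and deviations of same-numbered libraries correlated at 0.589 and 0.363. As eCtrl 3 has no partner, the block leaves it out of the contrast, and the 4 genes called without eCtrl 3 were among the 13 of the block. With the library labelled eKO 2 as a control, 0 genes were higher and 14 lower. Leaving out each library in turn gave 0 to 1 higher and 0 to 6 lower genes; the fit with HE/WT controls only is the one without eCtrl 2. In all, 33 genes were called by at least 1 of 17 settings. Over all genes, rescaling shifted the median from 0.0285 to -0.00298 (log2 fold change) and the split at an unadjusted p under 0.05 from 74 higher and 53 lower to 48 and 65.

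For Olfr78 the log2 fold change was -1.73 to -0.31 over the leave-one-out fits, with the lower value without the library labelled eKO 2. Of 638 values of 40 genes, 595 kept direction and side of the threshold, 27 passed it in the same direction and 16 changed sign. Chga was at 0.116 and Tph1 at 0.0704 under the replicate block and at 0.188 and 0.103 with the library labelled eKO 2 as a control, where Trim12a was at -0.414, and Trim30d was at 0.261 under the block. Leave-one-out ranges with changed signs were -0.27 to 0.12 for Chga, -0.22 to 0.05 for Tph1, -0.31 to 0.40 for Trim12a and -0.536 to 0.515 for Trim30d. Of 396 list medians 24 moved by more than the spread between libraries. Nearly all of these came from fits that left out or regrouped a library titled eKO.

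The difference between the lines was 5 higher and 0 lower genes with rescaling, 3 and 0 with a pseudocount of 1, 6 and 1 with 40, and 5 and 1 without the trend. Leaving out 1 library gave 3 to 1143 higher and 0 to 2173 lower: 159 and 424 without eCtrl 1, 1143 and 2173 without the library labelled eKO 2, and 3 to 7 and 0 to 2 without any of the others. The cause was not tested. Olfr558 and Ffar3 were below the level needed for testing, with 1 read worth up to 2.61 RP20M.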

Other observations

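A group of zinc finger genes on chromosome 2 (GRCm38), between 176708328 and 178034022, was near 0 in 1 library only. Zfp971 was at 107, 151 and 124 RP20M in eCtrl, 0 in eKO 1 and 144 in the library labelled eKO 2, and Zfp970 at 81, 63 and 90, 0 and 75. Gm14325, Gm14326, Gm14295 and Gm14305 were at 0 to 8 RP20M in eKO 1 and at 55 to 128 in the other 4 libraries. These 6 genes, chosen after their values were seen, make up 6 of the 14 lower calls with the library labelled eKO 2 as a control. Between 49.5% and 88.9% of their 50-base stretches occur in other genes, so their reads are hard to assign.

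Some genes varied widely among the controls. Pla2g4c, a cytosolic phospholipase, was at 2403, 2627 and 43 RP20M in eCtrl 1, 2 and 3, against 44 in eKO 1 and 144 in the library labelled eKO 2. Itln1, intelectin 1, a lectin of goblet and Paneth cells, was at 477, 278 and 17 against 23 and 31, and Pnliprp2, a pancreatic lipase-related protein, at 441, 171 and 19 against 39 and 31. In all 3 genes, as in Ang4, eCtrl 3 was close to the libraries titled eKO. Ceacam2, an adhesion molecule, was at 21916 RP20M in eCtrl 1, 2987 in eCtrl 2 and 2970 in eCtrl 3, against 18895 in eKO 1 and 29557 in the library labelled eKO 2. These genes were chosen after their values were seen.

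Across all 15401 genes, eKO 1 lay above the range of the 3 controls for 32.0% and below it for 26.5%, and the library labelled eKO 2 for 31.1% and 17.0%. A further library drawn like the controls would also often lie outside their range, so these shares show no difference by themselves.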
